A study of Schizosaccharomyces pombe with 36 samples.

Results

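Fission yeast, Schizosaccharomyces pombe, transcribes many long non-coding RNAs besides its mRNAs, and 84 of them were abundant enough in these libraries to be followed one by one. They were selected on the measured counts: a row was taken where its systematic name begins with SPNCRNA and its raw count averaged 100 or more over all 36 libraries. Of 1535 such rows and 7268 S. pombe rows in all, 84 met this rule. Their mean counts ran from 100.1 to 634.2, with a median of 148.1. Just inside the threshold lay SPNCRNA.1597 (104.4 counts), SPNCRNA.1533 (102.0 counts) and SPNCRNA.1580 (100.1 counts), and just outside it SPNCRNA.636 (99.2 counts), SPNCRNA.58 (98.4 counts) and SPNCRNA.708 (97.3 counts). This choice weighed the deeper libraries more: 84 members averaged 100 or more in labelled RNA alone, but 45 did so at steady state alone. Likewise 49 did so in knockout libraries alone and 84 in WT libraries alone. Among the cultures described below, 24 did so in those of set B alone and 83 in those of set A alone, which held 70.8% of all S. pombe counts. Abundance is therefore part of the choice and not a finding, and the rule favoured RNAs that were high in the deeper cultures.

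The study compared cells in which slr1 was knocked out (slr1-; strain yMAB001) with wild-type (WT) cells (strain yAS99). Slr1 is a La-related RNA-binding protein of the LARP1 family. All cells were streaked on YES plates at 32 °C, 3 liquid cultures of each genotype were started from single colonies, and 5 mM 4-thiouracil, a uracil analogue that is built into new RNA, was added. Each culture gave 5 libraries of thiol-labelled RNA caught on streptavidin, called labelled 5, 20, 50, 105 and 125 after time points whose unit the labels do not state, and 1 library called steady state. How the knockout allele was built is not stated in the labels.

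Libraries held 921427 to 6517092 S. pombe counts. The targeted gene matched the labels: slr1 had 13.5, 25.9 and 16.2 CPM (read counts scaled to a common library size) in steady-state knockout libraries, against 144, 111 and 128 CPM in WT ones. The 6 cultures fell into 2 sets by their ratio of fly to human reads at steady state, which was 1.85 to 2.15 in set B (knockout cultures 1 and 3, WT culture 3) and 0.990 to 1.07 in set A (knockout culture 2, WT cultures 1 and 2). Set B was also shallower, with 921427 to 1503133 steady-state counts against 1910453 to 4244433 in set A. The sets are a description of the libraries and not a label of the study. The summed level of markers of mating and meiotic cells moved with these sets, and these markers are given with the results they touch.

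Long non-coding RNAs of fission yeast are made by RNA polymerase II, carry a cap and a poly(A) tail, and often run antisense to a coding gene. Many are kept low by the nuclear exosome, which degrades RNA from its 3′ end and is guided to meiotic and non-coding transcripts by the RNA-binding protein Mmi1 and the MTREC complex around Red1 and Mtl1. Others act by being transcribed, and can hold a neighbouring promoter silent. A short-lived RNA makes up a larger share of newly labelled RNA than of steady-state RNA, and its share of labelled RNA falls as longer-lived RNAs accumulate label.

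Of the 84, 83 are listed as lncRNA in the RefSeq annotation of ASM294v3. Each of the 83 has 1 exon, and their lengths run from 809 to 5317 bases with a median of 2280. By chromosome, 26 lie on I, 39 on II and 18 on III, or 31.3, 47.0 and 21.7%, against 44.3, 36.6 and 19.1% of the 1430 SPNCRNA rows that the annotation holds. Coding genes on the opposite strand cover at least 50% of the length of 48 members and 1 to 49% of another 14. The other 21 are covered over less than 1% or not at all. A coding gene on the same strand overlaps SPNCRNA.646, SPNCRNA.772, SPNCRNA.867, SPNCRNA.946, SPNCRNA.1115 and SPNCRNA.1191. The same holds for SPNCRNA.1369, SPNCRNA.1378, SPNCRNA.1446, SPNCRNA.1476 and SPNCRNA.1544. Where they overlap, reads of the mRNA and of the member cannot be told apart here. In 3 pairs, members overlap each other from opposite strands (SPNCRNA.1115 with SPNCRNA.1116, SPNCRNA.671 with SPNCRNA.672, SPNCRNA.862 with SPNCRNA.863). Reads placed on the wrong strand could be counted for the other member of such a pair.

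The remaining member goes against the name of the group. SPNCRNA.906 is listed in RefSeq only as a synonym of snR30, a 326-base H/ACA small nucleolar RNA needed to process the RNA of the small ribosomal subunit. Its last 60 bases, on chromosome I and the + strand, are shown with the ACA box that defines this class, 3 bases before the end, in capitals.

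snR30: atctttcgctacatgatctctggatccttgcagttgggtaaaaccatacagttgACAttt

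A separate row for snR30 held 1 count in all 36 libraries together. The extent of SPNCRNA.906 in the authors' annotation is not known here, so whether its counts are reads of snR30 cannot be told. SPNCRNA.906 is kept below as 1 of the 84 because the rule takes it, and is named where it matters.

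Label enters an RNA at its U positions, so the letters of the transcripts bear on every comparison of labelled with steady-state RNA. Below stand the first 120 bases (RefSeq, ASM294v3) of 4 members that the comparisons turn on, as DNA letters of the RNA strand with each T (U in the RNA) in capitals. SPNCRNA.1644 and SPNCRNA.1469 were higher in labelled 5 than at steady state, SPNCRNA.954 and SPNCRNA.1533 lower.

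SPNCRNA.1644: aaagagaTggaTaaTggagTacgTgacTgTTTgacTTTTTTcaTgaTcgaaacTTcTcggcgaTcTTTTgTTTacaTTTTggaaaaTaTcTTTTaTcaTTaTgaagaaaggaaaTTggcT
SPNCRNA.1469: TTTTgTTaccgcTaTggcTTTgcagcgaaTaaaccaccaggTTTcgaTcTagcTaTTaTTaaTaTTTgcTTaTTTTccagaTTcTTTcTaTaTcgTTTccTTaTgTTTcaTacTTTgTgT
SPNCRNA.954: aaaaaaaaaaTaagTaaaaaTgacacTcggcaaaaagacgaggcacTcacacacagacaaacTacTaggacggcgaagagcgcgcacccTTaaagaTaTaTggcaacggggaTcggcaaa
SPNCRNA.1533: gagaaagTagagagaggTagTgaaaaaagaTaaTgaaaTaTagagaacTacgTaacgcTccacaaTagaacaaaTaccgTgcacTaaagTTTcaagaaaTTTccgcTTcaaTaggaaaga

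T made up 37.5 and 45.8% of these windows in SPNCRNA.1644 and SPNCRNA.1469, and 10.8 and 19.2% in SPNCRNA.954 and SPNCRNA.1533. Over the whole transcripts the shares lay closer, at 35.0 and 35.1% against 25.5 and 31.1%. Over the 83 members with a RefSeq transcript, the share of T and the log2 change in labelled 5 over steady state had a Spearman rank correlation of 0.27 in knockout and 0.20 in WT cells. Other features had correlations of similar size, with 0.31 and 0.15 for the share of the member opposite a coding gene, 0.21 and 0.22 for length, and 0.21 and 0.13 for GC content. These are descriptions across genes of the same libraries, which are not independent replicates. The 4 members were picked for their change, so their T content is an illustration of that weak relation and no test of it.

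The base composition of the group lay near that of other transcripts. T made up 32.9% of the members, 32.2% of the 1347 other annotated SPNCRNA transcripts and 32.3% of coding transcripts. The motif TNAAAC, which Mmi1 binds in meiotic transcripts, occurred 1.84 times per kb on the RNA strand of members and 2.19 times per kb on the other strand. Other SPNCRNA transcripts held 2.01 and coding transcripts 1.77 per kb on the RNA strand. At least 1 copy stood in 79 of the 83 members (95.2%), in 80.8% of the shorter other SPNCRNA transcripts and in 89.4% of coding transcripts. When the members were cut into 1346 windows of 150 bases, 22.9% held the motif. The window below, with its 3 copies in capitals, is bases 2092 to 2241 of SPNCRNA.1116 (chromosome III, - strand). It was picked because no window of 150 bases starting at a copy of the motif held more. It is not one of the 1346 windows, of which 4 held 3 or more copies.

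SPNCRNA.1116: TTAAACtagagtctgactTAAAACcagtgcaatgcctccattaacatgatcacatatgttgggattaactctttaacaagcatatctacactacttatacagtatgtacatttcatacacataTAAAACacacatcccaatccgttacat

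A match of these letters is a description and does not show binding.

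The 10 members with the highest mean CPM over the 36 libraries were SPNCRNA.1658 (175 CPM), SPNCRNA.1626 (136 CPM), SPNCRNA.1644 (134 CPM), SPNCRNA.1351 (131 CPM), rse1 (125 CPM), SPNCRNA.1096 (105 CPM), SPNCRNA.1115 (83.4 CPM), SPNCRNA.1469 (78.6 CPM), SPNCRNA.1443 (75.5 CPM) and SPNCRNA.1063 (70.8 CPM). Per length, the 83 lncRNA members at steady state had a median of 21.6 CPM per kb, with a range of 5.26 to 117, against a median of 46.3 CPM per kb over 4896 tested coding genes. The median member thus lay below the median coding gene per length, and the highest were SPNCRNA.1096 (117 CPM per kb) and SPNCRNA.1351 (111 CPM per kb).

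Besides SPNCRNA.906, rse1 and ncRNA.1343 are the members with names of their own. In the RefSeq annotation rse1 (SPNCRNA.111) lies upstream of ste11 and runs away from it on the other strand. The product of ste11 is the transcription factor that switches on mating and meiosis. It had 83.3, 199 and 93.0 CPM in knockout cultures and 188, 140 and 80.6 CPM in WT cultures at steady state. ncRNA.1343 (SPNCRNA.1343) starts beside nc-tgp1 and runs in the other direction, where nc-tgp1 is the non-coding RNA whose transcription into the transporter gene tgp1 is known to hold that gene silent when phosphate is plentiful. It had 33.5, 45.4 and 34.6 CPM in knockout cultures and 54.9, 37.0 and 31.3 CPM in WT cultures at steady state. The genotypes overlapped for both RNAs, and for rse1 knockout culture 2 and WT culture 1 were the highest.

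Most of the antisense members were more abundant than the coding gene they face. The rule asked a mean count of 100 or more of the members and set no minimum for the facing genes. It therefore raised this excess itself, and the values are a description. Where several coding genes face a member, the one with the longest overlap is used. Per length at steady state, 33 of the 48 members that lie mostly opposite a coding gene had a higher mean CPM per kb than that gene, and 26 were higher in each of the 6 libraries. Another 8 were lower in each of the 6. The median log2 ratio of member over coding gene was 1.08 at steady state and 1.44 in labelled 5, where 32 of the 48 were higher on the mean. SPNCRNA.1644 faces spo4, which encodes a kinase of the Cdc7 type needed in meiosis, and had 41.1 CPM per kb against 0.209 CPM per kb for spo4. SPNCRNA.904 had 25.4 CPM per kb against 0.628 for dmc1, the meiotic strand-exchange protein. SPNCRNA.1602 had 42.8 CPM per kb against 2.22 for hop1, a protein of the meiotic chromosome axis. At the other end, SPNCRNA.1597 had 26.6 CPM per kb against 896 for lys9, a gene of lysine biosynthesis.

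Many of these coding genes are named for meiotic expression. A mug, meu or mcp name, as symbol or synonym, was carried by 13 of the 48 facing genes (27.1%), against 204 of the 5106 annotated coding genes in the files (4.00%). The prefixes were picked after the list had been seen, so this is a description. Among the 13 were mug2, mug68, meu14, meu18, meu25, mcp3 and mcp4, as well as bgs2, which encodes a glucan synthase of the spore wall, and crp79, a meiotic mRNA export factor. The counts of the 5 members that lie wholly opposite a coding gene bear on how strands were counted. SPNCRNA.1195 averaged 210 counts against 61.9 for tti1, and SPNCRNA.1177 averaged 109 counts against 459 for nte1, so reads were assigned on both strands in unequal numbers. The counter's strand setting is not known here, and reads placed on the wrong strand cannot be told apart from antisense RNA.

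**Figure D1:**
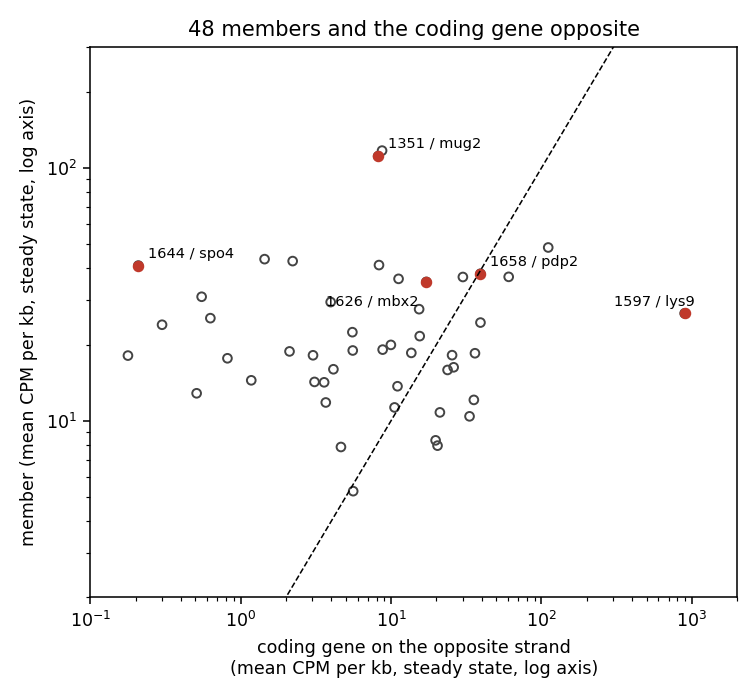
Mean level of each of 48 antisense members (vertical axis) against the coding gene on the opposite strand (horizontal axis), both in CPM per kb over the 6 steady-state libraries on log axes, with 1 circle per pair and a dashed line of equal levels. Of the 48 circles, 33 lie above the line, with SPNCRNA.1644 and spo4 farthest to its upper left among the named pairs and SPNCRNA.1597 and lys9 far below it.

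As a group, the members took a larger share of early labelled RNA than of late labelled RNA in both genotypes. In knockout cultures they made up 0.497 ± 0.067, 0.430 ± 0.035, 0.382 ± 0.034, 0.317 ± 0.062 and 0.317 ± 0.073% of S. pombe counts at labelled 5, 20, 50, 105 and 125 (mean ± SD, n = 3), and 0.470 ± 0.016% at steady state. In WT cultures the shares were 0.584 ± 0.096, 0.473 ± 0.119, 0.430 ± 0.097, 0.387 ± 0.126 and 0.363 ± 0.111% at the same time points, and 0.453 ± 0.115% at steady state. Each of the 6 cultures had a lower share at labelled 125 than at labelled 5. The fall was not particular to the members. All 1535 SPNCRNA rows together, members included, made up 1.36 ± 0.08, 1.15 ± 0.18 and 0.822 ± 0.160% at steady state, labelled 5 and labelled 125 in knockout cultures. In WT cultures they made up 1.29 ± 0.38, 1.35 ± 0.25 and 0.965 ± 0.350%. WT culture 1 had the highest share of the 6 in every fraction, at 0.691% in labelled 5 and 0.491% in labelled 125. That culture held 25.7% of all S. pombe counts and so weighed most in the choice of members, and its rank is given as a description.

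**Figure D2:**
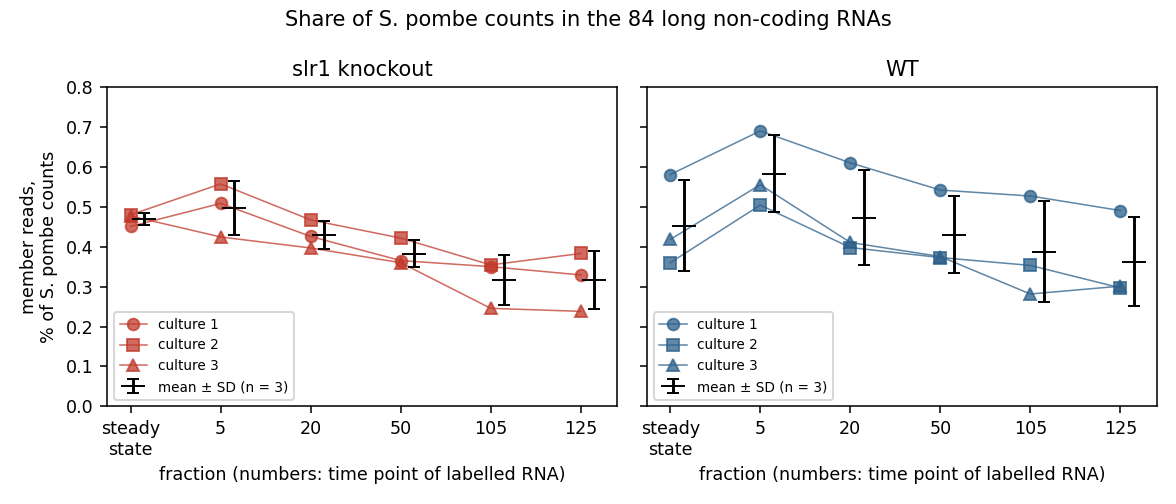
Percent of S. pombe counts that fell on the 84 members (vertical axis) at steady state and at the 5 labelled time points (horizontal axis), with 1 line per culture and black bars for mean ± SD of 3 cultures, knockout in the left panel and WT in the right. The knockout means fall to 0.317% at labelled 125, against 0.497% at labelled 5, and the WT means to 0.363%, against 0.584%.

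Labelled 5 was set against steady state to show which members were over- or under-represented in the newest RNA. In knockout cultures 2 members rose and 12 fell (edgeR's quasi-likelihood test, Benjamini-Hochberg adjusted p under 0.05 over all genes), where 13.5 and 13.2% of the 5823 genes tested did so. In WT cultures 4 rose and 5 fell, where 10.6 and 11.2% of genes did so. In this fit without a block, the shares of members called were thus at or below the background in both genotypes, apart from members that fell in the knockout (14.3%), which lay near it. The median log2 change of members was -0.21 in knockout and -0.03 in WT cultures, against 0.04 and 0.06 for all genes. These changes rest on TMM scaling. The members' share of unscaled S. pombe counts was instead higher on the mean in labelled 5. It was 0.497 against 0.470% at steady state in knockout and 0.584 against 0.453% in WT cultures. The direction for the group thus depends on scaling and measure, and scaling to human counts was not used against steady state. With the culture as a block, 7 members rose and 26 fell in the knockout, and 16 rose and 14 fell in WT, where 29.6, 24.4, 28.5 and 24.4% of genes did so. Under the block the share of members that fell in the knockout was thus above that of all genes. The other shares were below it.

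SPNCRNA.1644, the antisense RNA of spo4, rose in both genotypes. It had 188, 145 and 201 CPM in labelled 5 against 118, 97.7 and 105 CPM at steady state in knockout cultures, and 142, 192 and 219 CPM against 98.6, 138 and 102 CPM in WT cultures. Labelled libraries lay above the steady-state ones of the same genotype without overlap, with a log2 change of 0.74 ± 0.23 (SE; adjusted p = 0.0171, edgeR) in knockout and 0.70 ± 0.22 (adjusted p = 0.0250, edgeR) in WT cultures. SPNCRNA.1469, which lies opposite SPBC28E12.02, also rose in both. It had 94.2, 101 and 97.1 CPM in labelled 5 against 63.4, 74.7 and 56.3 CPM at steady state in the knockout, a log2 change of 0.58 ± 0.19 (adjusted p = 0.0220, edgeR). WT cultures had 127, 91.7 and 88.0 CPM against 69.0, 63.9 and 67.5 CPM, a log2 change of 0.62 ± 0.18 (adjusted p = 0.0173, edgeR).

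SPNCRNA.1457 and SPNCRNA.1421 missed the threshold in knockout cultures and passed it in WT cultures. SPNCRNA.1457, which partly faces the transcription factor gene atf21, had a log2 change of 0.51 ± 0.32 in the knockout (adjusted p = 0.239, edgeR). In WT it rose by 0.93 ± 0.31 on the log2 scale (adjusted p = 0.0308, edgeR), with 79.0, 36.8 and 48.4 CPM in labelled 5 against 39.3, 23.6 and 22.2 CPM at steady state, so that the fractions overlapped. SPNCRNA.1421, opposite the kinase gene ppk31, had a log2 change of 0.42 ± 0.22 (adjusted p = 0.159, edgeR) in knockout and 0.62 ± 0.22 (adjusted p = 0.0388, edgeR) in WT cultures. With the culture as a block both passed in the knockout too, with adjusted p of 0.00949 and 0.0270 (edgeR).

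The members that fell in both genotypes were SPNCRNA.954, SPNCRNA.1533, SPNCRNA.1597, SPNCRNA.728 and SPNCRNA.1626. SPNCRNA.954 had 12.6, 23.2 and 15.4 CPM in labelled 5 against 46.3, 66.6 and 51.9 CPM at steady state in the knockout, a log2 change of -1.67 ± 0.33 (adjusted p = 0.000471, edgeR). In WT it had 28.2, 18.9 and 19.6 CPM against 63.6, 48.9 and 41.1 CPM, a log2 change of -1.20 ± 0.32 (adjusted p = 0.00770, edgeR). The labelled and steady-state values did not overlap in either genotype. SPNCRNA.1533 lies upstream of mam1, the gene of the M-factor pheromone transporter, on the same strand. Its levels in labelled 5 were 15.1, 19.9 and 20.9 CPM in the knockout, against 50.6, 39.6 and 47.6 CPM at steady state, a log2 change of -1.29 ± 0.26 (adjusted p = 0.000545, edgeR). In WT they were 17.4, 23.4 and 16.3 CPM, against 35.9, 39.9 and 33.7 CPM, a log2 change of -0.95 ± 0.25 (adjusted p = 0.00811, edgeR). SPNCRNA.1597, antisense to lys9, changed by -1.52 ± 0.43 in knockout and -1.25 ± 0.42 in WT cultures on the log2 scale (adjusted p = 0.00968 and 0.0327, edgeR).

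SPNCRNA.1096, antisense to SPCC1884.01, had the largest fall in the knockout, by 1.71 ± 0.37 on the log2 scale (adjusted p = 0.00114, edgeR). Knockout cultures had 79.1, 75.2 and 56.4 CPM in labelled 5 against 280, 110 and 301 CPM at steady state. WT cultures had 95.0, 79.7 and 87.3 CPM against 139, 130 and 208 CPM, a log2 change of -0.86 ± 0.36 (adjusted p = 0.0854, edgeR; 0.0171 with the culture as a block). Among knockout cultures the fall was smallest in culture 2, the set A culture of that genotype. The overlapping pair SPNCRNA.671 and SPNCRNA.672 changed by -1.28 ± 0.25 and -1.26 in the knockout (adjusted p = 0.000435 and 0.00497, edgeR). SPNCRNA.906, in RefSeq a synonym of snR30, had 34.2, 92.5 and 52.0 CPM in labelled 5 against 134, 159 and 71.4 CPM at steady state in the knockout. Its log2 change of -1.02 ± 0.40 missed the threshold (adjusted p = 0.0575, and 0.000153 with the block, both edgeR).

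These calls depended on single cultures. Without knockout culture 1 the knockout counts were 0 higher and 4 lower, and without knockout culture 3 they were 0 and 6. Without WT culture 1 or WT culture 2 the WT counts were 1 and 2, or 2 and 2, and without WT culture 3 no member passed. Leaving out knockout culture 1 from the common fit left 1 and 4 in WT.

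**Figure D3:**
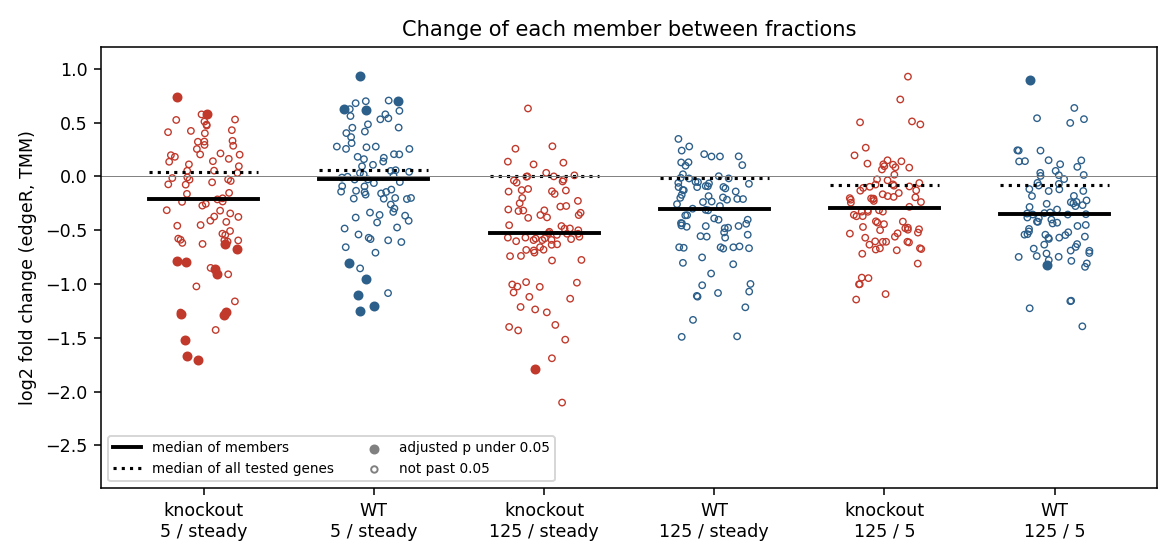
Log2 fold change (vertical axis, edgeR) of each of the 84 members in 6 comparisons between fractions (horizontal axis), knockout in red and WT in blue, filled where the adjusted p is under 0.05. Solid bars are member medians and dotted bars medians of all tested genes: the member median lies below in each comparison, by most at labelled 125 over steady state.

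By labelled 125 the members had become less abundant relative to steady state than genes in general. The summed share of all SPNCRNA rows, given above, was lower there too, so this is not particular to the members. The median log2 change of labelled 125 over steady state was -0.53 in knockout and -0.31 in WT cultures, against 0.00 and -0.01 over all 5823 genes. A change below 0 was seen in 74 of 84 members in the knockout and 71 of 84 in WT, where 49.9 and 51.5% of all genes lay below 0. Per culture the member median ran from -0.74 to -0.26 in knockout and from -0.40 to -0.11 in WT cultures, below 0 in each of the 6. Few single members passed the test: 1 fell and 0 rose in the knockout, where 0.464 and 0.738% of genes did, and 0 fell and 0 rose in WT, where 0.0859 and 0.481% did. In that WT comparison 12 members had an unadjusted p under 0.05, and DESeq2 called 1. With the culture as a block 31 fell and 1 rose in the knockout, and 19 fell and 0 rose in WT, where 10.3 and 5.19% of genes fell and 13.4 and 8.21% rose.

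The member that fell in the knockout was again SPNCRNA.1096. It had 75.4, 88.0 and 32.5 CPM in labelled 125, below its 280, 110 and 301 CPM at steady state, a log2 change of -1.79 ± 0.37 (adjusted p = 0.0141, edgeR). The call was lost without knockout culture 1 and without knockout culture 3, and 5 members fell without knockout culture 2 and 3 without WT culture 1. The 2 members with the smallest p in WT were SPNCRNA.1397, antisense to num1 (also called mcp5, which anchors dynein at the cortex in meiosis), and SPNCRNA.438. Their log2 changes were -1 ± 0.29 and -1.08 ± 0.36 (adjusted p = 0.112 and 0.203, edgeR; 0.000931 and 0.0249 with the culture as a block).

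The direct comparison of labelled 125 with labelled 5 gave the same direction for the group. The member median was -0.30 in knockout and -0.35 in WT cultures, against -0.08 and -0.08 over all genes. In the knockout 67 of 84 and in WT 65 of 84 members lay below 0, where 56.4 and 55.7% of all genes did. The per-culture medians were below 0 in all 6 cultures, from -0.45 to -0.13 in knockout and from -0.51 to -0.14 in WT cultures. When libraries were scaled to their human counts in place of TMM, the medians became 0.47 and 0.70 for members and 0.64 and 0.95 for all genes. That scaling moves every gene of a library by the same factor, so the sign of a single member's change depends on it. Among single members 0 rose and 0 fell in the knockout, where 6.3 and 2.18% of genes did, and 1 rose and 1 fell in WT, where 6.68 and 2.08% did. In the knockout comparison 11 members had an unadjusted p under 0.05, and DESeq2 called 1. With the culture as a block 4 rose and 21 fell in the knockout, and 3 rose and 32 fell in WT, where 17.5, 19.7, 20.2 and 19.8% of genes did so.

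SPNCRNA.1533, which had been low in labelled 5, was the member that rose in WT. Knockout cultures had 20.9, 32.1 and 26.4 CPM in labelled 125 against 15.1, 19.9 and 20.9 CPM in labelled 5, a log2 change of 0.51 ± 0.26 (adjusted p = 0.232, edgeR). WT cultures had 36.6, 41.6 and 27.5 CPM against 17.4, 23.4 and 16.3 CPM, a log2 change of 0.90 ± 0.25 (adjusted p = 0.0222, edgeR). SPNCRNA.862, which overlaps SPNCRNA.863, was the member that fell in WT, by 0.83 ± 0.23 on the log2 scale (adjusted p = 0.0211, edgeR). Knockout cultures had 41.3, 44.3 and 34.5 CPM in labelled 125 against 50.5, 38.6 and 37.0 CPM in labelled 5, which overlapped. WT cultures had 43.0, 36.1 and 29.1 CPM against 60.3, 60.5 and 72.1 CPM, with no overlap, and a log2 change of 0.20 under scaling to human counts. SPNCRNA.954 had a log2 change of 0.93 ± 0.32 in the knockout (adjusted p = 0.0727, edgeR; 2.1e-05 with the culture as a block), and SPNCRNA.946 one of -0.50 ± 0.18 (adjusted p = 0.0864, edgeR; 0.0136 with the block). The 2 WT calls were lost without WT culture 2 and without WT culture 3, and SPNCRNA.1533's also without WT culture 1.

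Along the 5 time points the mean of a member was most often highest at labelled 5, in 43 of 84 members (51.2%) in the knockout and 47 of 84 (56.0%) in WT, against 38.8 and 42.1% of all tested genes. It was lowest at labelled 125 in 28 members (33.3%) in the knockout and 42 (50.0%) in WT, against 19.6 and 18.8% of all genes. A mean that fell at each step was seen in 9 members (10.7%) in the knockout and 15 (17.9%) in WT, against 6.13 and 4.91% of all genes. The courses of the named members differed. SPNCRNA.1658, the most abundant member, had 182, 267 and 168 CPM at labelled 5, 135, 240 and 162 CPM at labelled 20, and 165, 198 and 98.1 CPM at labelled 125 in the knockout. SPNCRNA.1626 faces the transcription factor gene mbx2 over 2020 of its 5113 bases. It had 142, 105 and 130 CPM at labelled 5, 114, 128 and 131 CPM at labelled 20, and 198, 134 and 228 CPM at labelled 50 in the knockout. ncRNA.1343 had 21.2, 28.5 and 24.2 CPM at labelled 5, 15.9, 27.9 and 14.5 CPM at labelled 50 and 33.5, 38.2 and 41.5 CPM at labelled 105 in the knockout.

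**Figure D4:**
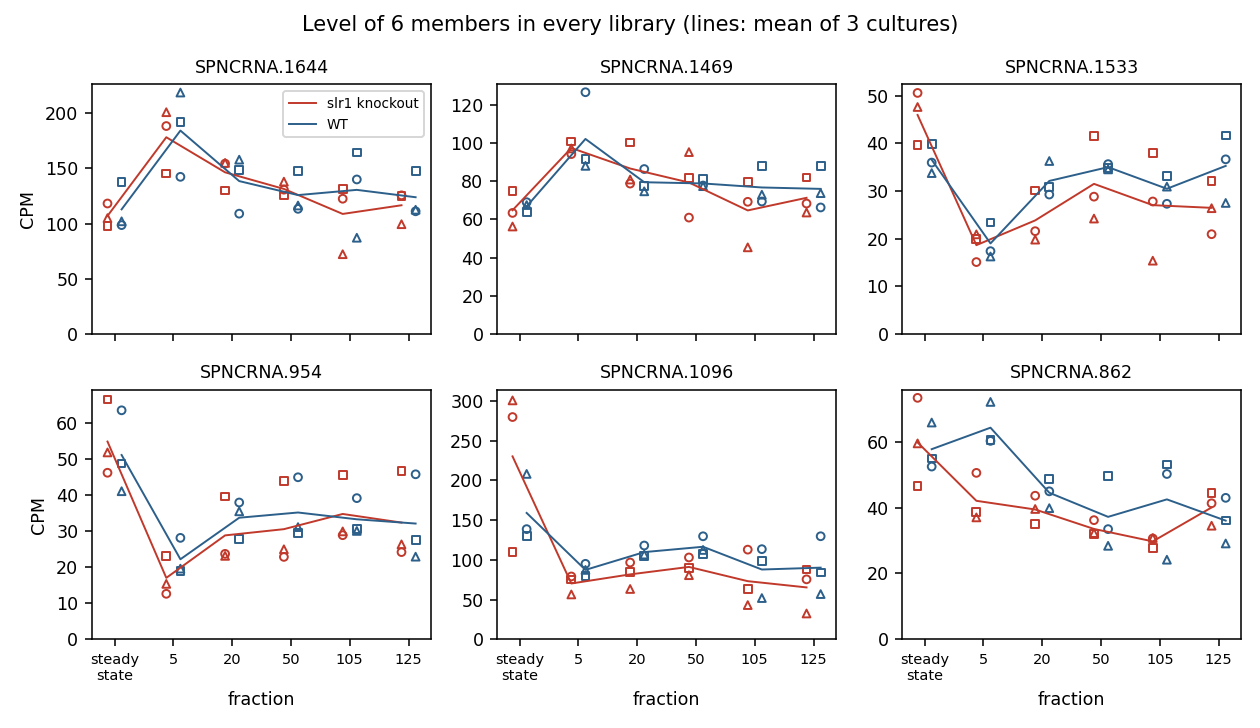
CPM (vertical axis, from 0) of 6 members at steady state and at the 5 labelled time points (horizontal axis), knockout in red and WT in blue, with 1 open symbol per culture and lines through the means of 3 cultures. SPNCRNA.1644 and SPNCRNA.1469 peak at labelled 5, while SPNCRNA.954, SPNCRNA.1533 and SPNCRNA.1096 are below their steady-state level there.

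No member passed the test between knockout and WT cultures. At steady state 0 of 84 passed in edgeR, where 0.0186% of 5371 genes did, that 1 gene being slr1 itself. In the sums of the 5 labelled libraries of each culture 0 of 84 passed, where 0.0166% of 6013 genes did, again slr1. The median log2 change of members, knockout over WT, was 0.04 at steady state and -0.11 in the labelled sums, against -0.01 and 0.00 for all genes. The interaction of genotype with labelled 5 over steady state, and that with labelled 125 over labelled 5, gave 0 calls each, among members and among all genes (edgeR). At an unadjusted p under 0.05 there were 0 members at steady state, 2 in the labelled sums, and 0 and 1 in the 2 interactions, and DESeq2 called 0 members in each of these 4 comparisons.

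The members with the smallest p were SPNCRNA.716, SPNCRNA.906 and SPNCRNA.1158. SPNCRNA.716 lies opposite SPAC56F8.12 over 1228 of its 1463 bases. It had 33.5, 32.7 and 42.2 CPM in knockout and 73.6, 46.6 and 42.8 CPM in WT cultures at steady state, without overlap but with the nearest values almost equal. In labelled 5 it had 34.6, 30.4 and 37.4 CPM in knockout and 77.1, 53.6 and 72.8 CPM in WT cultures. Its log2 change was -0.59 ± 0.29 at steady state and -0.79 ± 0.24 in the labelled sums (adjusted p = 1 and 0.9998, edgeR). SPNCRNA.1158, antisense to gnr1, had 48.9, 61.3 and 39.6 CPM in knockout and 86.5, 80.4 and 76.5 CPM in WT cultures at labelled 5. Its log2 change in the labelled sums was -0.67 ± 0.22 (adjusted p = 0.9998, edgeR). SPNCRNA.906, in RefSeq a synonym of snR30, had a log2 change of 0.61 ± 0.31 at steady state (adjusted p = 1, edgeR). Its values of 134, 159 and 71.4 CPM in knockout and 103, 71.2 and 69.1 CPM in WT cultures overlapped. For rse1 and ncRNA.1343 the log2 changes at steady state were -0.10 ± 0.39 and -0.11 ± 0.29, and in the labelled sums 0.03 ± 0.46 and -0.45 ± 0.26.

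Some members differed widely between cultures of the same genotype. Over the 6 cultures at steady state, the levels spanned a range of at least 2 on the log2 scale of CPM + 1 for 8 of 84 members (9.52%), against 4.47% of all tested genes. In the labelled sums it was so for 9 (10.7%), against 3.31%. The rule used these counts and admitted RNAs that were high in the deeper cultures, so nothing is read from the shares beside those of all genes. The median range, on which the rule bears too, was 0.90 for members and 0.88 for all genes at steady state. In the labelled sums it was 0.89 and 0.73. SPNCRNA.1378, antisense to cbp6, a gene of mitochondrial translation, had the widest range in both fractions, 4.17 and 4.26. It had 8.54, 112 and 6.49 CPM in knockout cultures 1, 2 and 3 and 134, 17.6 and 9.87 CPM in WT cultures 1, 2 and 3 at steady state.

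Knockout culture 2 and WT culture 1 were the 2 highest cultures for 23 of 84 members (27.4%) at steady state, against 18.9% of all genes, and for 29 (34.5%) in the labelled sums, against 17.5%. Of the 15 possible pairs of cultures this was the most frequent among members in both fractions. These cultures held 47.5% of all S. pombe counts, and 83 of the 84 members averaged 100 or more counts in them alone, against 41 in the other 4 cultures alone, so the rule itself raised this share and nothing is read from it. For 7 members, both cultures also stood at least 2-fold above the third in the labelled sums: SPNCRNA.867, SPNCRNA.1195, SPNCRNA.1252, SPNCRNA.1451, SPNCRNA.1378, SPNCRNA.617 and SPNCRNA.1082. Of all 6013 genes, 121 (2.01%) showed this pattern, among them 51 of 1028 SPNCRNA rows (4.96%) and 68 of 4943 coding genes (1.38%). No other pair of cultures showed it for any member. All 7 had these 2 cultures highest in each of the 6 fractions. They averaged 302.9 to 570.0 counts in these 2 cultures and 16.7 to 54.7 counts in the other 4, and so met the rule through these 2 cultures. The 7 were picked for this pattern, so it is a description with no test.

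Of these 7 members, 6 lie mostly opposite a coding gene, and each is set here beside it. SPNCRNA.1252 had 9.97, 85.0 and 14.1 CPM in knockout and 75.8, 14.4 and 9.05 CPM in WT cultures at steady state, while ams2, a GATA factor gene of histone transcription, had 54.8, 73.0 and 72.5 CPM and 66.1, 87.2 and 52.7 CPM. SPNCRNA.1378 was high where cbp6 was lower: cbp6 had 91.8, 55.7 and 111 CPM in knockout and 64.1, 74.4 and 125 CPM in WT cultures. SPNCRNA.1451 and cdc28, a splicing helicase gene, were both high there, cdc28 with 50.5, 93.6 and 49.8 CPM in knockout and 87.2, 48.2 and 74.1 CPM in WT cultures. SPNCRNA.1195 had 15.7, 89.6 and 20.6 CPM in knockout and 110, 33.9 and 17.3 CPM in WT cultures, and tti1, which encodes a subunit of a chaperone complex of large kinases, 11.4, 23.0 and 13.0 CPM and 18.7, 13.4 and 8.23 CPM. SPNCRNA.617 had 27.8, 60.3 and 33.5 CPM in knockout and 78.4, 32.3 and 32.1 CPM in WT cultures, and rad8, a DNA repair gene, 137, 138 and 157 CPM and 135, 109 and 162 CPM. SPNCRNA.1082 had 12.1, 75.8 and 26.0 CPM in knockout and 71.9, 19.5 and 14.0 CPM in WT cultures, and sec16, which encodes a protein of the sites where vesicles leave the endoplasmic reticulum, 59.8, 82.2 and 66.0 CPM and 76.3, 61.9 and 66.7 CPM. At steady state knockout culture 2 and WT culture 1 were thus the highest for 3 of the 6 facing genes (cdc28, tti1 and sec16), the lowest for cbp6, and neither for ams2 and rad8. In the labelled sums, on which the 7 were picked, the same held except for sec16. There sec16 was highest in knockout culture 3, with 102, 105 and 135 CPM in knockout and 99.4, 87.3 and 98.9 CPM in WT cultures.

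SPNCRNA.1351, antisense to mug2, had the opposite pattern. It had 164, 75.3 and 155 CPM in knockout and 47.8, 186 and 165 CPM in WT cultures at steady state, lowest in knockout culture 2 and WT culture 1. The gene mug2, named for its upregulation in meiosis, had 8.54, 25.9 and 8.65 CPM in knockout and 22.6, 10.5 and 5.76 CPM in WT cultures, highest in the same 2 cultures. SPNCRNA.1351 was picked for its abundance and shown here for its pattern.

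**Figure D5:**
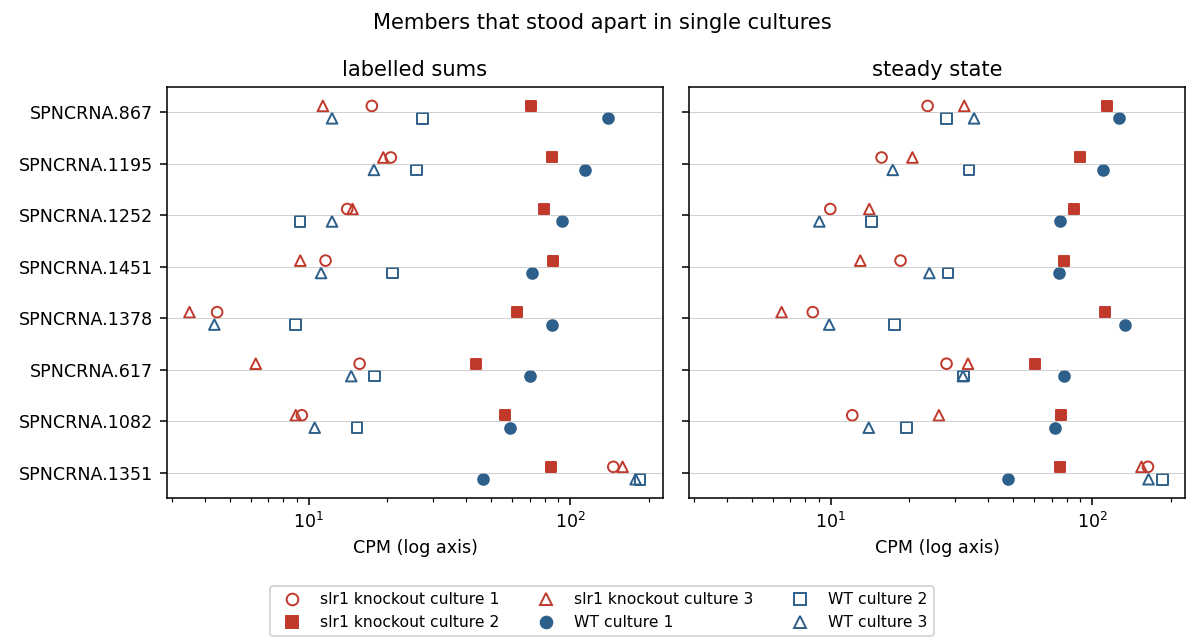
CPM (horizontal log axis) of the 7 members named above and of SPNCRNA.1351 in each of the 6 cultures, labelled sums left and steady state right, knockout in red and WT in blue, with filled symbols for knockout culture 2 and WT culture 1. The filled symbols lie to the right of all open ones for the 7 members and to the left for SPNCRNA.1351.

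Set B was also tested against set A, with genotype as a covariate. The rule favoured RNAs that were high in set A, so the counts of members called in each direction are a description. At steady state 3 members were higher and 8 lower in set B, where 6.33 and 6.57% of 5371 genes were. In the labelled sums 1 was higher and 5 lower, where 2.03 and 3.53% of 6013 genes were. These counts fell to 0 without WT culture 3 and without each of the 3 knockout cultures, and were up to 34 without a WT culture of set A, 9 higher and 25 lower at steady state without WT culture 2. SPNCRNA.863 was higher in set B in both, by 1.94 ± 0.31 and 1.51 ± 0.22 on the log2 scale (adjusted p = 0.0106 and 0.0239, edgeR). It had 87.6 and 124 CPM in knockout cultures 1 and 3 and 107 CPM in WT culture 3, against 21.8 CPM in knockout culture 2 and 24.8 and 46.9 CPM in WT cultures 1 and 2 at steady state. At labelled 125 the sets overlapped, with 19.3, 15.6 and 11.96 CPM against 18.5, 26.9 and 22.6 CPM in the same cultures.

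The RNA rse1 was lower in set B, by 1.06 ± 0.20 on the log2 scale at steady state and by 1.29 ± 0.20 in the labelled sums (adjusted p = 0.0146 and 0.0260, edgeR). Its steady-state values were 83.3, 93.0 and 80.6 CPM in set B and 199, 188 and 140 CPM in set A, without overlap. SPNCRNA.1115 and SPNCRNA.1063 were lower as well, SPNCRNA.1115 by 1.19 at steady state (adjusted p = 0.0291, edgeR) and SPNCRNA.1063 by 1.14 ± 0.15 in the labelled sums (adjusted p = 0.0181, edgeR). SPNCRNA.1096 and SPNCRNA.1600 were higher in set B at steady state, by 1.05 ± 0.23 and 0.77 ± 0.19 (adjusted p = 0.0213 and 0.0282, edgeR). SPNCRNA.1378, SPNCRNA.1082 and SPNCRNA.1451 were called lower in both fractions, and SPNCRNA.1252 and SPNCRNA.1195 at steady state alone. For these 5 the set A culture WT 2 lay nearer to set B than to knockout culture 2 and WT culture 1, as the values of SPNCRNA.1378 above show.

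The summed level of markers of mating and meiosis moved with the sets, but single markers differed. The summed CPM of 18 such genes at steady state was 221 to 230 in set B and 445 to 477 in set A. Of the 18, 4 were called lower in set B in the labelled sums (ste11, mfm2, spk1 and mam2, all of the pheromone response) and 0 higher. Others, among them rec10 and mei4, were high in knockout culture 2 and WT culture 1 alone. In the labelled sums rec10 had 15.3, 32.4 and 15.3 CPM in knockout and 51.8, 14.6 and 14.5 CPM in WT cultures. The marker mfm3, at most 1.45 CPM, was higher in each set B culture, and mam1 overlapped between the sets. The part of these markers in the results on rse1, which lies next to ste11, and on the other members was not tested. In such bulk RNA, fewer cells of a kind and less RNA per cell cannot be told apart.

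The genes of RNA surveillance encode the machinery that acts on such RNAs. Their values here are shares of mRNA and not amounts or activity of that machinery. Of 16 nuclear exosome and TRAMP genes 0 were called between genotypes at steady state or in the labelled sums, and the same held for 18 genes of the MTREC complex, Mmi1 and poly(A) factors, 11 of RNA interference and heterochromatin, 16 that repress cryptic transcription and 18 of cytoplasmic decay. Their medians, knockout over WT, lay between -0.06 and 0.11 at steady state and between 0.02 and 0.13 in the labelled sums. In labelled 5 over steady state, where 13.5% of all genes rose and 13.2% fell in the knockout and 10.6% rose and 11.2% fell in WT, 6 of the 18 MTREC, Mmi1 and poly(A) factor genes rose in the knockout and 0 fell, among them mtl1, iss10 and pcf11, and 3 rose in WT (dhp1, iss10 and pcf11) and 0 fell. Of the 11 RNA interference and heterochromatin genes 4 rose and 1 (arb2) fell in the knockout, and 3 rose in WT (clr4, dcr1 and rdp1) and 0 fell. Of the 16 genes that repress cryptic transcription 6 rose in the knockout, among them hrp3, hip3 and cph2, and 4 in WT, among them hrp3, cph2 and hip3, and 0 fell in either. Of the cytoplasmic decay genes 9 rose and 1 (lsm1) fell in the knockout, and 7 rose and 1 (lsm1) fell in WT. Of the exosome and TRAMP genes 0 rose in either genotype, 0 fell in the knockout and 1 (rrp43) fell in WT.

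The culture as a block raised these counts, as it did over all genes, of which 29.6% then rose and 24.4% fell in the knockout and 28.5% rose and 24.4% fell in WT. Of the exosome and TRAMP genes 4 then rose (cid14, mtr4, dis3 and rrp4) and 2 fell in the knockout, and 5 rose (the same and air1) and 2 fell in WT. Of the MTREC, Mmi1 and poly(A) factor genes 10 rose and 2 fell in the knockout, and 7 rose and 2 fell in WT. Of the RNA interference and heterochromatin genes 6 rose and 2 fell in the knockout, and 7 rose and 3 fell in WT. Of those that repress cryptic transcription 10 rose and 1 fell in the knockout, and 8 rose and 1 fell in WT. Of the cytoplasmic decay genes 13 rose and 1 fell in the knockout, and 9 rose and 1 fell in WT. In set B over set A at steady state, where 6.33% of all genes were higher and 6.57% lower, 6 of the 16 exosome and TRAMP genes were higher and 0 lower, with a median of 0.52 on the log2 scale, among them rrp4, rrp40 and rrp45, which encode parts of the exosome's ring and cap. In the labelled sums 0 of the 16 were called, with a median of 0.40. At steady state 2 of the RNA interference and heterochromatin genes (stc1 and arb1) and 2 of the cytoplasmic decay genes (dcp1 and lsm1) were higher in set B, and 0 of the other 2 lists were called. The median log2 change was 0.15 for the RNA interference and heterochromatin genes. For the cytoplasmic decay genes it was -0.31, the opposite direction to dcp1 and lsm1.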

How the data were processed

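The 36 deposited files hold raw read counts per gene as the authors made them, unnormalised, for S. pombe (7268 rows), human and fly genes, with whole numbers whose totals differ between libraries. Per the submitters' processing notes, the tools included HTSeq 0.6.1p2, STAR 2.5.2a and Trimmomatic 0.36, and per the labels' protocols the kit was a stranded mRNA kit. No source used here gives build, annotation or strand setting, so no coordinates are printed, and names, lengths, neighbours and sequences come from RefSeq's ASM294v3, which held 1430 of the 1535 SPNCRNA rows.

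S. pombe counts were tested with edgeR 4.0.16 (quasi-likelihood, TMM, filterByExpr at a minimum count of 10, Benjamini-Hochberg threshold 0.05) in R 4.3.3. Fractions were compared in a fit of 36 libraries, genotypes and sets in 6 steady-state libraries or 6 labelled sums. All 84 members were tested in each comparison. CPM use TMM-scaled S. pombe library sizes. The counter's summary lines stayed out: 3.62 to 8.49% of reads had no feature. Levels between genes are compared as CPM per kb of the annotated length.

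Cultures pair the fractions, since the labels number the cultures: the deviations of 2 fractions of a culture from their group means correlated by 0.19 to 0.84. Counts of calls between fractions are therefore given with the block as well, and a single gene's blocked value where it changes the call. In the unblocked fits of steady-state libraries or labelled sums, p-values measure the spread between cultures from single colonies. The unblocked fit of fractions treats the libraries of a culture as independent, although their deviations correlated as given above. With the block, p-values between fractions measure how differences between fractions varied from culture to culture, with each culture's own level taken out. Alternatives were DESeq2 1.42.0, relative log expression scaling, scaling to human counts, no filter, the block, each culture set alone, the set as covariate, and leaving out each culture. The fits were tested on simulated counts.

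The members, gene lists and tests were chosen with earlier results of these data known. Named are slr1, members with a symbol, the 10 highest by mean CPM, 3 on each side of the threshold, up to 5 called each way per comparison (or the 2 with the smallest p), the genes opposite to them, and up to 3 called surveillance genes per direction. The members named for single cultures were chosen after their values were seen.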

Additional observations from a re-analysis of the deposited data

How the results depend on the processing

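Counts of called members are given here, higher and lower together. With the culture as a replicate block they were 33 and 30 for labelled 5 over steady state in knockout and WT, 32 and 19 for labelled 125 over steady state, and 25 and 35 for labelled 125 over labelled 5, and the block changed no count between genotypes. There the numbers do not pair knockout with WT cultures (same-numbered deviations at steady state correlated by -0.55, 0.11 and 0.65), and slr1 itself lost its call under the block (adjusted p = 0.480 at steady state and 0.371 in the labelled sums, edgeR). Within set A alone, 0 knockout and 4 WT members were called in labelled 5 over steady state, 0 in the knockout in labelled 125 over steady state, and 0 in WT in labelled 125 over labelled 5. Within set B alone, the counts were 30 in the knockout and 4 in WT in labelled 5 over steady state, 22 and 1 in labelled 125 over steady state, and 13 in the knockout in labelled 125 over labelled 5. In fits within a set the lone culture of a genotype is assumed to vary like the others. DESeq2 called 8 and 1 in labelled 125 over steady state in knockout and WT, 1 in the knockout in labelled 125 over labelled 5, and 19 in the labelled sums of set B over set A. Scaling to human counts gave 1 and 6 for labelled 125 over labelled 5 in knockout and WT, 2 for set B over set A at steady state and 11 in the labelled sums. It turned the sign of member medians to 0.47 and 0.70 for labelled 125 over labelled 5 in knockout and WT, -0.27 and 0.038 for knockout over WT at steady state and in the labelled sums, -0.27 for the genotype difference in labelled 125 over labelled 5, and 0.125 for set B over set A in the labelled sums. It also turned SPNCRNA.946 in the knockout to 0.255 and SPNCRNA.862 in WT to 0.20 in labelled 125 over labelled 5, since it moves the median of all genes as well. Leaving out 1 culture gave medians of -0.244 (without knockout culture 2) to 0.012 (without WT culture 3) for set B over set A at steady state.

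Leaving out each culture in turn gave 4 to 17 and 0 to 10 called members for labelled 5 over steady state in knockout and WT, 0 to 5 and 0 to 1 for labelled 125 over steady state, 0 to 2 and 0 to 2 for labelled 125 over labelled 5, 0 to 34 and 0 to 33 for set B over set A at steady state and in the labelled sums, and 0 in each genotype comparison. The cause of these shifts was not tested. For the named members, 127 of 526 alternative values lost a call, 10 gained one and 2 changed sign. Steady-state libraries of set B, with 921427 to 1503133 counts, limit what could be called there.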
